A study of Mus musculus with 12 samples.

Results

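Gdf15, Fgf21, Klb and Fgfr1 encode a pair of secreted stress hormones and the receptor parts through which FGF21 signals. They are 4 of the 26921 genes counted in left ventricular RNA of mice with a cardiomyocyte deletion of Gch1. They were chosen by the measured difference between genotypes, because Gdf15 had a higher level in the deleted hearts, and the others were added as its partner hormone and that hormone's receptor. The genotype difference of the 4 genes is therefore given as a description, with no test and no p-value.

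RNA sequencing was performed on left ventricles of 16-week-old littermates, with 1 library from each of 12 animals. The 6 WT mice carried Gch1 flox/flox without Cre. The 6 cmGch1 KO mice carried Gch1 flox/flox together with α-MHC-Cre+/-, in which the α-MHC promoter drives Cre in cardiomyocytes, so that other cells of the heart keep an intact Gch1. Gch1 encodes GTP cyclohydrolase 1, the first enzyme of tetrahydrobiopterin synthesis. No library carried Cre without the floxed alleles, so that the effect of Cre itself and that of the deletion cannot be told apart here.

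GDF15 is a divergent member of the TGF-β superfamily that many tissues secrete under mitochondrial, nutrient or DNA-damage stress. It acts on the hindbrain receptor GFRAL with the kinase RET, and it is known for suppressing appetite and as a blood marker of heart disease. FGF21 is an endocrine fibroblast growth factor that is made mainly in the liver, and it needs the co-receptor β-Klotho, encoded by Klb, beside an FGF receptor such as FGFR1. Both hormone genes are known targets of the integrated stress response, in which ATF4 and its partners bind their promoters. p53 is a known activator of Gdf15, and PPARα is one of Fgf21.

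The count tables held between 19921398 and 37917806 reads per library. The smallest level that 3 counts allow was 0.0832 to 0.140 cpm, which is counts scaled to a common library size, depending on the library. Gch1 itself lay between 9.32 and 12.2 cpm without Cre and between 3.94 and 6.35 cpm with it, with no overlap. The 10 cardiomyocyte markers were all measured, and summed to at least 69455 cpm in every library. cmGch1 KO replicates 2 and 3 stood apart: they had 87.1 and 99.6 cpm of Xist and no reads from 4 Y-linked genes. The other 10 libraries had at most 0.235 cpm of Xist and a sum of 168 to 193 cpm for the 4 Y-linked genes. This is the pattern of female hearts in these 2 libraries and of male hearts in the others, although the sample labels give no sex. As no WT library had the female pattern, sex and genotype are partly confounded through cmGch1 KO replicates 2 and 3. The same 2 libraries had the lowest share of mitochondrial reads, at 14.9% and 16.1% against 18.3% to 22.9% in the others. Results are therefore also given without them where they rest on them.

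Gdf15 was higher in every cmGch1 KO heart than in any WT heart. In WT hearts its level ran from 1.08 over a median of 1.98 to 2.68 cpm, and in the deleted hearts from 5.51 over a median of 6.32 to 11.2 cpm. The groups did not overlap, and 2.83 cpm separated the highest WT heart from the lowest cmGch1 KO heart. Behind these levels stood 337 reads in all WT libraries together and 1211 in the cmGch1 KO libraries. The means were 1.87 ± 0.676 cpm for WT and 7.16 ± 2.21 cpm for cmGch1 KO (SD, n = 6 each), which came to 1.94 on the log2 scale (SE 0.25) or 3.84-fold. Of the 11225 genes that passed the filter on low values, 1.07% were separated in the same way with all deleted hearts on top, and 0.802% with all WT hearts on top. Because the set was built around this rise, nothing is read from that share.

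Gdf15 passed the filter only through the deleted hearts. A gene had to exceed 3 cpm in at least 6 libraries, and Gdf15 did so in 0 WT and 6 cmGch1 KO libraries. The spread between animals was of like relative size in both groups, with a coefficient of variation of 36.1% in WT and 30.9% in cmGch1 KO. The highest value of all came from cmGch1 KO replicate 6. Without cmGch1 KO replicates 2 and 3 the log2 fold change was 2.04. In whole tissue, more cells that express a gene and more RNA per cell cannot be told apart.

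Gdf15 (ENSMUSG00000038508) lies on the minus strand of GRCm38 at chr8:70629393-70632456, with 1852 bp of exon in 3 blocks, and Fgf21 (ENSMUSG00000030827) on the minus strand at chr7:45613886-45615490, with 951 bp of exon in 3 blocks. The 250 bases before each start, at chr8:70632457-70632706 and chr7:45615491-45615740, are shown because the stress-response factors named above are known to act on these promoters. They come from RefSeq on GRCm38.p6, written 5′ to 3′ along the gene, and capitals mark the matches found.
Gdf15: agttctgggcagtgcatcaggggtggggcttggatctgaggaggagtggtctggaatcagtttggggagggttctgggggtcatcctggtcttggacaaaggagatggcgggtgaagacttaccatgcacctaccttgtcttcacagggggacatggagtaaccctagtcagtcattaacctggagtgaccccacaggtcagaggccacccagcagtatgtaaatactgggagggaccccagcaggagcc
Fgf21: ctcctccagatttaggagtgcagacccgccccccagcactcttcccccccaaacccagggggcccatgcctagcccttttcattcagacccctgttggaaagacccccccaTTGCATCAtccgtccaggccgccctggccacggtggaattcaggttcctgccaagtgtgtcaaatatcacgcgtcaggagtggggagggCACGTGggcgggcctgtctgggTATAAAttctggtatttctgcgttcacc
The Fgf21 window holds TTGCATCA, the reverse-strand form of the C/EBP-ATF element TGATGNAA, from position -139 counted from the start, and the TATA box TATAAA from position -28. Between them it holds the E-box CACGTG from position -50. Neither TGATGNAA nor TATAAA occurs in the Gdf15 window on either strand, CACGTG occurs only in the window of another listed Gdf15 start further inside the gene, and the cyclic-AMP element TGACGTCA and the p53 half-site occur in neither gene's window. Over 32851 promoter windows of 300 bases, each from 250 before to 50 after a start, TGATGNAA was found in 3.97%, CACGTG in 7.15%, TATAAA in 13.6%, TGACGTCA in 1.79% and the p53 half-site in 8.36%. A match is a stretch of letters, not a measured binding site.

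Fgf21 was close to the limit of detection in both groups and had more reads in cmGch1 KO hearts. WT libraries held from 0 to 2 reads, with 3 of the 6 at 0, and cmGch1 KO libraries held from 2 to 12. In cpm, WT hearts ran from 0 over a median of 0.0140 to 0.0635, and cmGch1 KO hearts from 0.0554 over a median of 0.152 to 0.519. The ranges touched at their edges, since cmGch1 KO replicate 6, the heart with the most Gdf15, had the least Fgf21 of its group. At least 3 reads were seen in 0 WT and 5 cmGch1 KO libraries. The sums of 4 and 31 reads gave a ratio of 8.64 after correction for depth, with an exact 95% interval of 3.05 to 33.7 that covers counting error only and leaves out the spread between animals. Fgf21 did not pass the filter on low values and took no part in the fit across genes.

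The Fgf21 reads also moved with other signals. The 2 cmGch1 KO hearts with the most Fgf21 were replicates 3 and 2, the libraries with Xist. They also had the highest sums of adipocyte markers in their group, 8.22 and 8.97 cpm against 0.471 to 3.50 cpm in the other cmGch1 KO hearts, while WT hearts had from 2.06 cpm up. Summed liver markers were 1.38 and 2.23 cpm in these 2 hearts against 0.0554 to 0.274 cpm in the other 4. WT replicate 4, with the highest adipocyte sum of all, 9.55 cpm, had 1 read of Fgf21. The part of these signals in the Fgf21 difference was not tested. Without both libraries the ratio was 5.36. Within WT, replicate 2 carried 43.3 cpm of liver markers, 30.5 cpm of it Alb, and 0 reads of Fgf21.

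Klb, the co-receptor that gives FGF21 its target specificity, was barely seen. It lies on the plus strand at chr5:65348314-65384007 (ENSMUSG00000029195), with 4549 bp of exon. WT libraries held 0 to 4 reads and cmGch1 KO libraries 0 to 2, so that no heart exceeded 0.112 cpm. The sums were 11 and 3 reads, a ratio of 0.304 with an exact 95% counting interval of 0.0544 to 1.15. That interval leaves out the spread between animals, and with so few reads no difference between the genotypes was tested. Kl, which encodes the related α-Klotho, was as scarce, with averages of 0.0751 and 0.0498 cpm.

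Fgfr1, the receptor kinase that FGF21 uses together with β-Klotho, was the abundant member of the set and was nearly level between the groups. It lies on the plus strand at chr8:25513654-25575718 (ENSMUSG00000031565), with 9875 bp of exon. WT hearts ran from 24.7 over a median of 29.2 to 32.2 cpm and cmGch1 KO hearts from 23.8 over a median of 31.3 to 33.5 cpm, and the groups overlapped over almost their whole range. The means were 28.4 ± 3.01 and 30.2 ± 3.76 cpm (SD, n = 6 each), with a log2 fold change of 0.09 (SE 0.10). Reads of Gm16159, an antisense gene inside Fgfr1, averaged 0.00613 cpm, far below these levels.

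**Figure D1:**
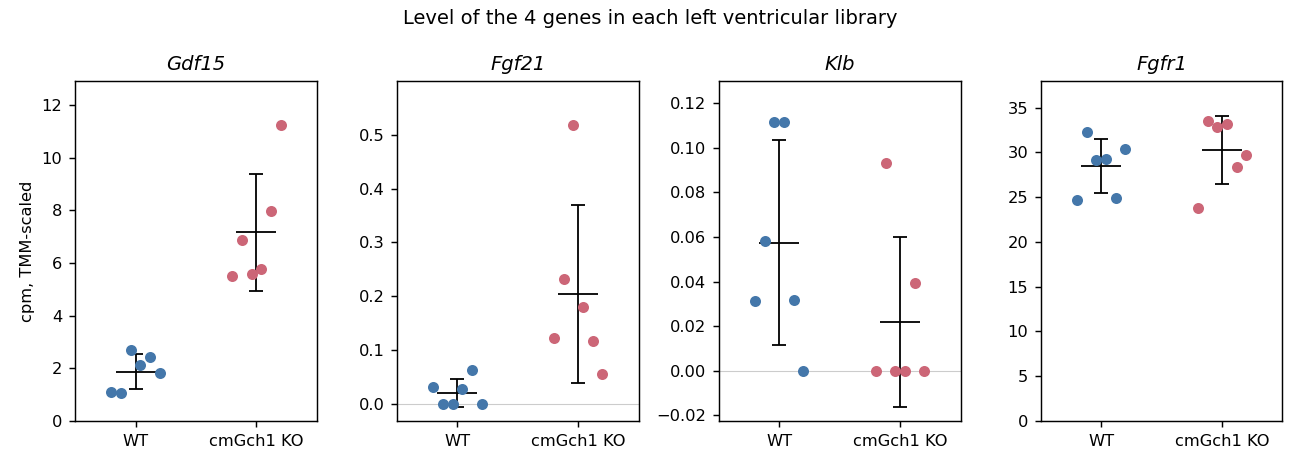
Level of Gdf15, Fgf21, Klb and Fgfr1 in cpm (linear axes of different height) in the 6 WT and 6 cmGch1 KO hearts. Each point is 1 library and the bars give the mean ± SD. For Gdf15 every cmGch1 KO point, from 5.51 cpm up, lies above every WT point, for Fgf21 and Klb all points lie near the limit of detection, and for Fgfr1 the groups overlap.

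Among the FGF receptors, Fgfr1 was the main kinase in both genotypes. Per kilobase of exon, Fgfr1 made up 68.7 ± 6.28% of the summed levels of Fgfr1 to Fgfr4 in WT and 73.9 ± 5.91% in cmGch1 KO hearts (SD, n = 6 each). Fgfr3 followed with 29.8 ± 6.55% and 24.4 ± 5.98%, and Fgfr2 and Fgfr4 shared the rest. The decoy receptor Fgfrl1 exceeded Fgfr1 in every library, with mean levels of 7.05 and 7.42 cpm per kilobase against 2.88 and 3.06 for Fgfr1. Of the 5 receptor and Klotho genes beside Fgfr1 and Klb, the 2 that could be tested were Fgfr3 and Fgfrl1, of which 0 were called in either direction at an adjusted p under 0.05 and 0 had an unadjusted p under 0.05 (edgeR quasi-likelihood test, Benjamini-Hochberg adjustment over all tested genes), and DESeq2 called 0. The test called 0.677% of all tested genes higher and 0.445% lower, 1.12% in all. Fgfr3 had a log2 fold change of -0.29 (SE 0.25, adjusted p = 0.761, edgeR), and Fgfrl1 one of 0.07 (SE 0.11, adjusted p = 0.893).

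Within the 30 measured genes listed as ligands of the TGF-β superfamily, Gdf15 moved from the 9th place to the 4th by mean level per kilobase. Its place ran from 7 to 11 over the WT hearts and from 3 to 6 over the cmGch1 KO hearts, so that no heart of the one genotype shared a place with the other. In cmGch1 KO hearts it reached 3.86 ± 1.20 cpm per kilobase, below Tgfb1 at 5.93 ± 0.445. Bmp1, next below at 3.52 ± 0.575, was within the spread of Gdf15. Bmp1 encodes a metalloprotease and is not a ligand, but the list of 30 and the places count it. In WT hearts Bmp1 lay above Gdf15, at 3.48 cpm per kilobase. Of the 8 listed genes beside Gdf15 that passed the filter, Bmp1 among them, 1 was called higher and 0 lower by edgeR, where 0.677% and 0.445% of all tested genes were. The called gene was Tgfb2, a ligand that drives fibrosis and remodelling. Tgfb2 went from 7.37 to 12.2 cpm and so rose by 0.73 on the log2 scale (SE 0.14, adjusted p = 0.0241, edgeR). That call was kept in 5 of the 12 fits that left out 1 library, with adjusted p from 0.00656 to 0.0687, and was lost without WT replicate 1, 3 or 4 or cmGch1 KO replicate 2, 3, 4 or 5. Without cmGch1 KO replicates 2 and 3 together its adjusted p was 0.147. Inhbb, an inhibin subunit, had a log2 fold change of 0.41 and was not called by edgeR (adjusted p = 0.119), whereas DESeq2 called it higher together with Tgfb2.

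Fgf21 stood at place 16 of the 20 measured FGF family genes in WT hearts and at place 11 in cmGch1 KO hearts by mean level per kilobase. The 20 include Fgf11, Fgf12, Fgf13 and Fgf14, whose products act inside the cell and are not classed as secreted ligands. The places of the single hearts, 13 to 17 and 8 to 12, rest on few reads. Fgf1, a growth factor stored in heart muscle, led the family with 38.0 and 37.2 cpm per kilobase, against 0.0215 and 0.215 for Fgf21. Of the 6 FGF family genes that could be tested, Fgf11 and Fgf13 among them, 0 were called by edgeR or DESeq2, and 1, Fgf18, had an unadjusted p under 0.05 (log2 fold change 0.36, adjusted p = 0.368, edgeR).

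**Figure D2:**
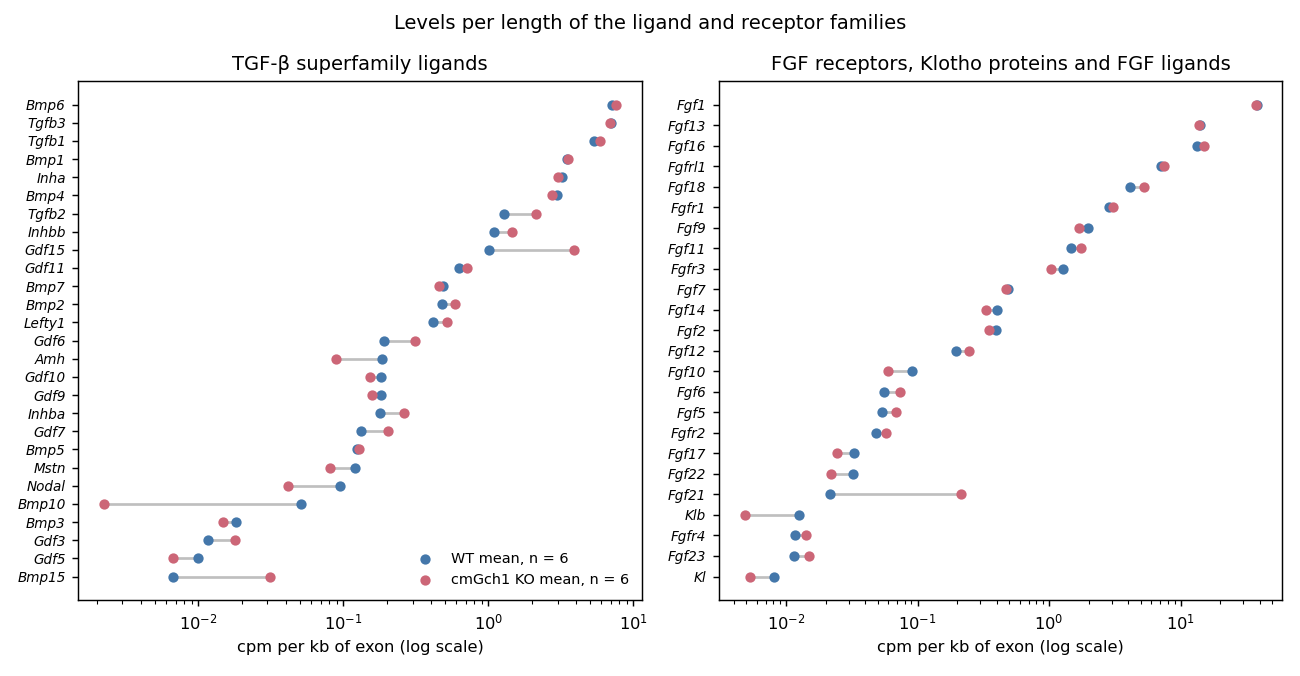
Mean level per kilobase of exon (horizontal log axis, cpm per kb), 1 gene per line ordered by its WT mean. Left are the genes listed as TGF-β superfamily ligands, with Bmp1, which is not a ligand. Right are the FGF family genes, FGF receptors and Klotho genes. Blue points are the WT means and red points the cmGch1 KO means (n = 6 each), joined by a grey line, and genes with a mean of 0 in either group are left out. The red point of Gdf15 lies to the right of the blue one (1.01 and 3.86), as does that of Fgf21 (0.0215 and 0.215), while the points of Fgfr1 nearly touch (2.88 and 3.06), and the genes low in each list rest on few reads.

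On the receptor side of GDF15, the heart expressed Ret but the hindbrain receptor Gfral was not analysed here. Ret, the kinase of that complex, averaged 6.94 and 7.10 cpm (log2 fold change 0.04, adjusted p = 0.971, edgeR). Of the 3 tested genes in the list of the GDF15 receptor and its relatives, Ret, Gfra1 and Gfra4, 0 were called by edgeR or DESeq2. Only Ret belongs to the GDF15 complex, while Gfra1 and Gfra4 encode relatives of GFRAL that serve RET with other ligands. Gfra4, a co-receptor of RET, had the 1 unadjusted p under 0.05, with a log2 fold change of -0.28 (adjusted p = 0.424, edgeR). Furin, a proprotein convertase able to cleave the GDF15 precursor, averaged 126 and 120 cpm (log2 fold change -0.08, adjusted p = 0.846, edgeR). Of the 4 protease genes tested, 0 were called by edgeR or DESeq2 and 0 had an unadjusted p under 0.05.

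Among genes that carry or answer FGF receptor signals, none was called between the genotypes. Of 22 signal-transduction genes, all tested, 0 were called by edgeR or DESeq2. Map2k1, which encodes the MAP kinase kinase MEK1, was the 1 gene with an unadjusted p under 0.05 (log2 fold change 0.17, adjusted p = 0.289, edgeR), where 7.01% of all tested genes lay under that p and higher, and 4.51% under it and lower. Their median log2 fold change was -0.02, against -0.01 over all tested genes. Of 19 feedback and response genes of FGF receptor signalling, such as the Sprouty gene Spry1 and the early-response gene Egr1, 13 were tested, 0 were called by edgeR or DESeq2 and 0 had an unadjusted p under 0.05. Spry1 averaged 25.8 and 24.6 cpm, and Egr1 45.7 and 31.3 cpm with a log2 fold change of -0.55 (SE 0.73, adjusted p = 0.869, edgeR).

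Among the known regulators of Gdf15 and Fgf21, a single gene was called. Of 30 such genes, all tested, 1 was called higher and 0 lower, where 0.677% and 0.445% of all tested genes were. At an unadjusted p under 0.05, 3 were higher and 4 lower, against 7.01% and 4.51% of all tested genes. The called gene was Atf5, a transcription factor of the mitochondrial stress response, which rose from 64.9 to 92.0 cpm (log2 fold change 0.50, SE 0.11, adjusted p = 0.0438, edgeR). This call was kept in 3 of 12 fits without 1 library, those without WT replicate 1 or cmGch1 KO replicate 1 or 6, with adjusted p from 0.0243 to 0.132 over the 12, and its adjusted p was 0.139 without cmGch1 KO replicates 2 and 3 together. Atf4 had a log2 fold change of -0.01 (SE 0.10, adjusted p = 0.984, edgeR), Ddit3, which encodes CHOP, one of 0.02 (SE 0.16, adjusted p = 0.985), and Trp53, which encodes p53, one of 0.16 (SE 0.08, adjusted p = 0.493). Atf3 and Ppara leaned lower, with log2 fold changes of -0.27 (SE 0.27) and -0.26 (SE 0.18) and adjusted p of 0.809 and 0.656 (edgeR).

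Between genotypes, edgeR called some targets of these regulators higher and none lower. Of 35 ATF4 targets, 27 were tested, 3 were called higher and 0 lower, where 0.677% and 0.445% of all tested genes were, and the median log2 fold change was 0.13. In sign, 22 of the 27 leaned higher and 5 lower, where 5241 of all 11225 tested genes leaned higher and 5984 lower, with no set test run. At an unadjusted p under 0.05, 11 were higher and 2 lower, against 7.01% and 4.51% of all tested genes. DESeq2 called Gars, a tRNA synthetase gene, as the 4th. Mthfd2, the mitochondrial one-carbon enzyme, went from 3.59 to 13.0 cpm and rose by 1.85 on the log2 scale (SE 0.20, adjusted p = 0.000639, edgeR), close to that of Gdf15. Slc7a5, an amino acid transporter, rose with a log2 fold change of 0.78 (SE 0.14, adjusted p = 0.0117, edgeR), and Atf5 is the other of the 3. Trib3, an ATF4 target that in turn restrains ATF4, had a log2 fold change of 0.51 (SE 0.26), which did not pass the test. Without cmGch1 KO replicates 2 and 3, 1 of the 3 calls was kept, that of Mthfd2 (adjusted p = 0.00487), while Slc7a5 had an adjusted p of 0.0885.

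Of 25 p53 targets, 20 were tested, 3 were called higher and 0 lower, against the same 0.677% and 0.445% of all tested genes, with a median log2 fold change of 0.16. In sign, 14 of the 20 leaned higher and 6 lower, where 5241 of all 11225 tested genes leaned higher and 5984 lower, with no set test run. At an unadjusted p under 0.05, 7 were higher and 1 lower, against 7.01% and 4.51% of all tested genes. DESeq2 also called Bbc3, which encodes the death factor PUMA. Phlda3, a repressor of AKT, went from 13.2 to 30.7 cpm and rose by 1.22 on the log2 scale (SE 0.17, adjusted p = 0.00227, edgeR). The nuclease gene Aen (0.41, adjusted p = 0.00814) and Eda2r, a receptor of the TNF receptor family (0.63, adjusted p = 0.0237), made up the rest. Cdkn1a, which encodes the cell cycle inhibitor p21, had a log2 fold change of 0.79 (SE 0.29) and an adjusted p of 0.267 (edgeR). Without cmGch1 KO replicates 2 and 3, the Phlda3 call was kept (adjusted p = 0.00487), while Aen (adjusted p = 0.0563) and Eda2r (adjusted p = 0.094) lost theirs. The Eda2r call was also lost without WT replicate 2, 3, 4 or 5 or cmGch1 KO replicate 2 alone, with adjusted p of up to 0.0655.

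**Figure D3:**
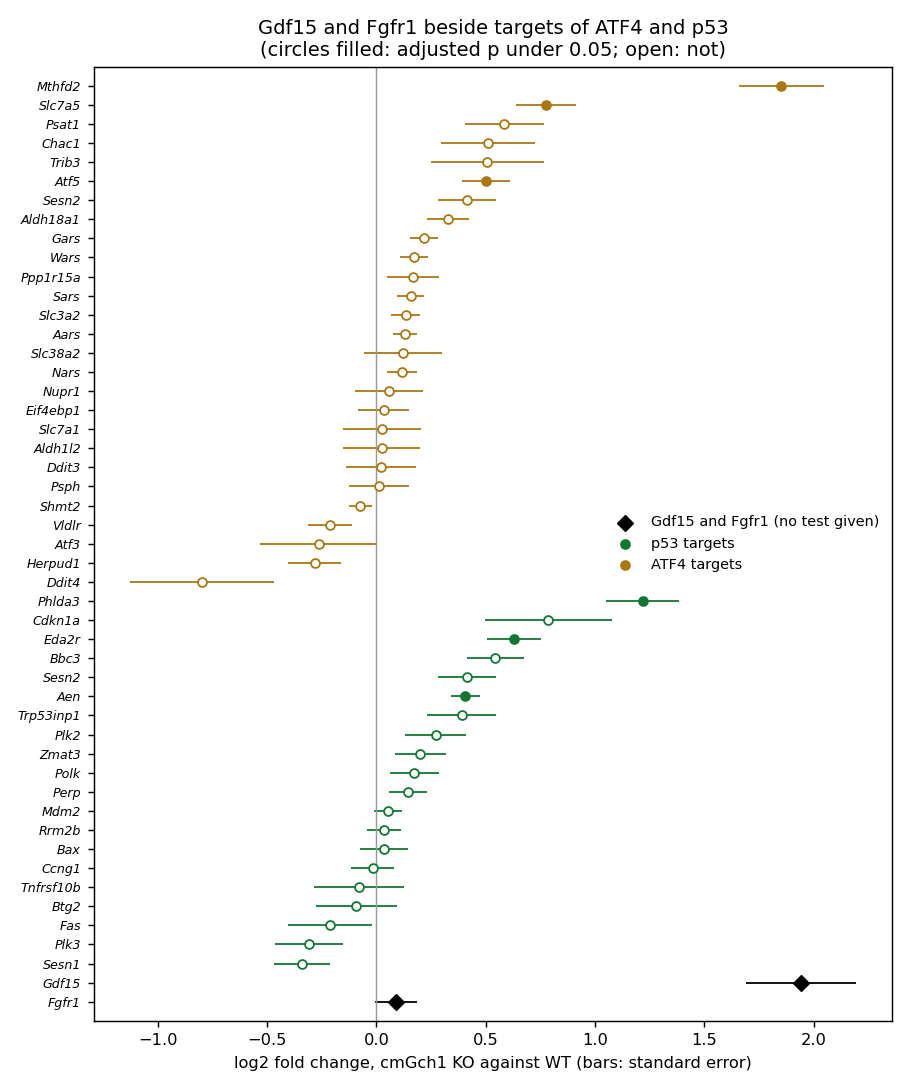
Log2 fold change, cmGch1 KO against WT (horizontal axis, bars ± SE), of the tested ATF4 and p53 targets beside Gdf15 and Fgfr1, 1 gene per line. Filled circles have an adjusted p under 0.05 (edgeR), open circles do not, and the diamonds of Gdf15 (1.94) and Fgfr1 (0.09) carry no test. Mthfd2 at 1.85 and Phlda3 at 1.22 lie nearest to Gdf15.

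Of 20 PPARα targets, 17 were tested, and 1 was called higher and 0 lower, where 0.677% and 0.445% of all tested genes were. Their median log2 fold change was -0.10. At an unadjusted p under 0.05, 1 was higher and 3 lower, against 7.01% and 4.51% of all tested genes. DESeq2 also called Acot1, an acyl-CoA thioesterase gene, lower. The called gene was Ucp2, a mitochondrial carrier, which rose from 42.6 to 83.9 cpm (log2 fold change 0.98, SE 0.15, adjusted p = 0.00612, edgeR). Of 39 other secreted factors of heart and muscle, 25 were tested, and 2, Nppa and Tgfb2, were called higher and 0 lower by edgeR. The shares over all tested genes were the same 0.677% and 0.445%, and the median log2 fold change of these factors was 0.26. At an unadjusted p under 0.05, 8 were higher and 2 lower, against the same 7.01% and 4.51%. DESeq2 called 3 higher, with Nppb added, and 1 lower, Apln, which encodes the peptide apelin. Nppa, which encodes atrial natriuretic peptide, a marker of cardiac load, rose from 153 to 442 cpm (log2 fold change 1.53, SE 0.30, adjusted p = 0.0240, edgeR). That call was kept in 6 of 12 fits without 1 library, with adjusted p from 0.00965 to 0.0698, and was lost without WT replicate 2, 3 or 5 or cmGch1 KO replicate 2, 3 or 4. Without cmGch1 KO replicates 2 and 3 together the adjusted p was 0.157. Summed markers of the atrium, where Nppa is most abundant, ran from 30.2 to 332 cpm without and from 71.8 to 226 cpm with the deletion, and their part in the Nppa difference was not tested. Nppb, the gene of brain natriuretic peptide, had a log2 fold change of 1.07 and an adjusted p of 0.0701 (edgeR).

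Markers of other cell types were set beside Gdf15 because many cells can make it. Summed macrophage markers ran from 279 to 424 cpm without and from 364 to 502 cpm with the deletion. Over all 11225 tested genes, 5241 leaned higher and 5984 lower, which stands beside each count of signs given here, and no set test was run. Of the 12 macrophage markers tested, 11 leaned higher and 1 lower, with a median log2 fold change of 0.32. The 1 called higher was the leukocyte gene Ptprc (0.55, adjusted p = 0.0116, edgeR, and 0.0636 without cmGch1 KO replicates 2 and 3), where 0.677% of all tested genes were. At an unadjusted p under 0.05, 10 were higher and 0 lower, against 7.01% and 4.51% of all tested genes. Summed fibroblast markers ran from 830 to 1111 cpm without and from 943 to 1172 cpm with the deletion, with 0 of 8 called by edgeR and 3 with an unadjusted p under 0.05, all higher, where DESeq2 called 1. In sign, 8 of the 8 leaned higher, with a median log2 fold change of 0.19. Summed cardiomyocyte markers ran from 76235 to 82778 cpm without and from 69455 to 73992 cpm with the deletion and did not overlap. Of all tested genes taken singly, 0.802% had every cmGch1 KO heart below every WT heart. Of the 10 markers, 9 leaned lower and 1 higher, with a median log2 fold change of -0.17. By edgeR or DESeq2 0 of the 10 were called, and 0 had an unadjusted p under 0.05. Of 8 endothelial and 8 mural cell markers, 0 and 1 were called higher, the latter Acta2, the smooth muscle actin gene (0.66, adjusted p = 0.00672, edgeR). Of the 8 mural cell markers 2 leaned higher and 6 lower, with a median log2 fold change of -0.07. Their sum ran from 1157 to 1319 cpm without and from 1228 to 1305 cpm with the deletion. Of the endothelial markers, DESeq2 called 0 and 1 had an unadjusted p under 0.05, in the lower direction. The part of these cells in the level of Gdf15 was not tested. In WT hearts the summed fibroblast markers ran against Gdf15 (r = -0.94, exact permutation p = 0.00833, rho = -0.83, exact p = 0.0583, n = 6, r = -0.80 without the 2 hearts farthest from the median of Gdf15), and in cmGch1 KO hearts r was -0.72 (exact p = 0.119, rho = -0.49, exact p = 0.356) and turned to 0.69 without the 2 farthest. For the summed macrophage markers in cmGch1 KO hearts r was -0.69 (exact p = 0.110, n = 6) and rho -0.94 (exact p = 0.0167), with r = -0.24 without the 2 farthest, and in WT hearts r was -0.14 (exact p = 0.764) and rho 0.03 (exact p = 1). Of 14 such relations of Gdf15 with marker sums, depth and mitochondrial share, 0 held after adjustment, with a smallest adjusted p of 0.117 for r and 0.233 for rho (exact permutation tests).

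Within each genotype, the hearts with more Gdf15 were compared with the level of its regulators and of other stress genes. These relations do not use the difference between genotypes, but the genes were chosen with earlier results of these data known. Across 14 genes and both genotypes, 28 relations were computed over log2 levels with n = 6. Of these, 4 had an exact two-sided permutation p under 0.05 and 0 held after Benjamini-Hochberg adjustment, with a smallest adjusted p of 0.181. The smallest p that 720 orders of 6 hearts allow is 0.00278.

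For the early stress gene Atf3 in cmGch1 KO hearts r was 0.90 (exact p = 0.0139, rho = 0.77, exact p = 0.103, n = 6), and r was 0.89 without the 2 hearts farthest from the median of Gdf15. In WT hearts r was 0.77 (exact p = 0.0375, rho = 0.71, exact p = 0.136, n = 6). It was -0.02 without the 2 farthest, so that it depended on these 2 together, and ran from 0.69 to 0.88 with 1 heart left out. For Ddit3 in cmGch1 KO hearts r was 0.89 (exact p = 0.0125, rho = 0.77, exact p = 0.103), and for Ppara it was 0.91 (exact p = 0.0194, rho = 0.83, exact p = 0.0583). Without the 2 farthest hearts these values of r were 0.33 and 0.21, so that both depended on those 2 hearts together. With 1 heart left out r ran from 0.85 to 0.95 for Ddit3 and from 0.67 to 0.95 for Ppara. Leaving out the farthest hearts also narrows the range of Gdf15, which by itself can lower r.

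Mthfd2 and Nppa, which rose beside Gdf15 between genotypes, had negative correlations with it from heart to heart in the deleted group, short of the threshold. In cmGch1 KO hearts r was -0.65 for Mthfd2 (exact p = 0.140, rho = -0.20, exact p = 0.714, n = 6) and -0.77 for Nppa (exact p = 0.0833, rho = -0.43, exact p = 0.419, n = 6). Both values turned on cmGch1 KO replicate 6, which had the most Gdf15 at 11.2 cpm and the least Mthfd2 and Nppa of its group. It had 6.90 cpm of Mthfd2 where the other 5 hearts had 11.0 to 16.1, and 202 cpm of Nppa where the others had 344 to 681. Without that heart r was 0.51 for Mthfd2 and -0.20 for Nppa, and without the 2 hearts farthest from the median of Gdf15 it was 0.46 and 0.92.

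**Figure D4:**
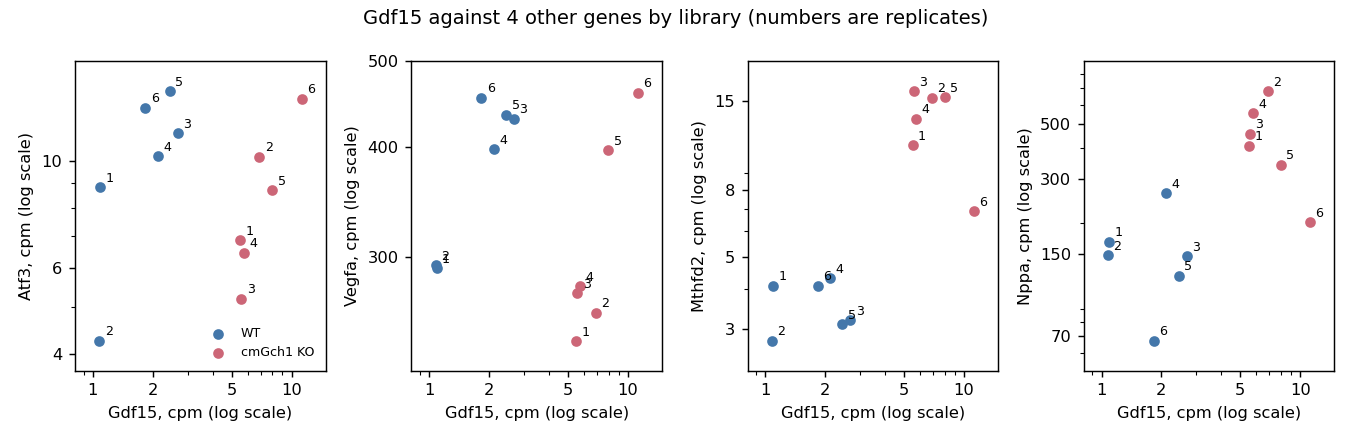
Level of Atf3, Vegfa, Mthfd2 and Nppa against Gdf15 in each heart (cpm, log axes), with WT and cmGch1 KO in different colours and replicate numbers beside the points. cmGch1 KO replicate 6, at 11.2 cpm of Gdf15, lies highest of its group for Atf3 and Vegfa and lowest for Mthfd2 and Nppa.

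The genes whose level followed Gdf15 most closely from heart to heart were found by the correlation of log2 levels over all 12 hearts after the mean of each genotype was taken out, given as a description. Highest were Zfp598, a ubiquitin ligase of stalled ribosomes (0.89), Vegfa, the main angiogenic growth factor (0.88), Tmc8 (0.87), Frmd5 (0.87) and Epc1 (0.86). Lowest were Aph1b, a γ-secretase subunit (-0.90), Lrrn2 (-0.90), Gjc1, a connexin (-0.88), Serpinf1, which encodes the secreted factor PEDF (-0.88), and Homez (-0.85). Over the 11224 other genes the median of this correlation was -0.04, with 5% of genes below -0.52 and 5% above 0.57, and 31 genes lay above 0.8 and 19 below -0.8. None of the 10 named genes was called between genotypes by edgeR, with adjusted p from 0.117 to 0.99. The order depends on single hearts, since between 2 and 7 of the 10 stayed among the 5 highest or 5 lowest when 1 heart was left out. Fgfr1 stood at -0.04 on this measure, Fgfr3 at 0.70 and Ret at 0.75.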

How the data were processed

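RNA from 12 left ventricles (6 WT, 6 cmGch1 KO) had been sequenced as bulk libraries, 1 animal each. The authors aligned the reads with HISAT2, processed them with Picard and counted them per Ensembl gene with featureCounts, and the deposited counts are raw whole numbers. GRCm38, HISAT2 and SAMtools are named in the submitters' processing notes. The annotation release and strand setting are not given in the sources used here. A table of values normalized by the authors on a log2-like scale was also deposited, with 1 common value for every count of 0, and was used only as an alternative. 0 columns of per-sample values were left unmapped.

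Counts were scaled by TMM. Genes above 3 cpm in at least 6 libraries were tested with edgeR 4.0.16 (quasi-likelihood test, genotype as the only term, Benjamini-Hochberg adjusted p under 0.05), which was tested on simulated data. DESeq2 1.42.0, limma 3.58.1 and R 4.3.3 gave alternatives. Levels per kilobase used the exon union of GENCODE M21 on GRCm38, which held 26582 of the 26921 gene IDs (98.7%). Log2 levels for correlations used a prior count of 2, and correlations within a genotype used exact permutation tests. Total counts limit the precision of low genes, and intervals on summed counts are exact 95% intervals for counting error only. The motifs were searched on both strands as exact letters.

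The members and the gene lists were chosen with earlier results of these data known. Named in the text are the 4 members, the genes of each list with an adjusted p under 0.05 and up to 4 others high in mean cpm, the 14 genes set against Gdf15 within genotype, and the 5 genes highest and 5 lowest in likeness to Gdf15, with Gch1, Xist and 4 Y-linked genes as checks. Kl, Fgfr2, Fgfr4, Tgfb1, Bmp1, Inhbb, Fgf18, Gfra4, Map2k1, Gars, Bbc3, Acot1, Apln, Alb and Gm16159 fall outside this rule in part and were named after their values were seen. Of 318 list genes, 314 were matched, and Gfral, Fgf3, Fgf15 and Gdf1 were not analysed here.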

Additional observations from a re-analysis of the deposited data

Results flagged for a closer look

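In 7 of 96 groups of 6 libraries, 1 library lay far from the rest (its gap to the next divided by the range was above Dixon's 95% limit), where chance alone gives about 1 in 20 groups. Among targets and relatives of the hormones, WT replicate 6 had the lowest Aen, 38.5 cpm against 42.6 to 45.0 in the other WT hearts, and the highest Cdkn1a, 94.5 cpm against 32.3 to 52.8. cmGch1 KO replicate 4 had the highest Fgf1, 231 cpm against 194 to 199, and replicate 5 the highest Fgfr4, 0.157 cpm against 0 to 0.0554. cmGch1 KO replicate 6, the heart with the most Gdf15, had the lowest Tgfb2, 8.26 cpm against 12.2 to 14.4, and the highest Frmd5, 276 cpm against 128 to 173. Summed liver markers reached 43.3 cpm in WT replicate 2 against 0.186 to 0.381 in the other WT hearts.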

How the results depend on the processing

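Gdf15 was higher in cmGch1 KO under each of the 21 alternatives run, with a log2 fold change of 1.76 to 2.07 when 1 library was left out. The set was chosen for this rise and the groups did not overlap. The direction was therefore settled beforehand and lends no support, and only the size could vary. With limma on the deposited normalized values the difference was 1.03. That scale draws low levels together: a count of 0 stands at 6.10, and Gdf15 at 7.07 for 1.08 cpm and at 8.86 for 11.2 cpm. The 1.03 is therefore not on the same scale as the other values. Fgfr1 stayed between 0.05 and 0.15, and the Fgf21 ratio between 6.16 and 14.3, when 1 library was left out.

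Of 76 genes higher and 50 lower, scaling by library size alone gave 116 and 36, DESeq2 218 and 155, a term for the level of Xist over Y-linked genes 40 and 24, and leaving out cmGch1 KO replicates 2 and 3 together 20 and 18. Leaving out 1 library gave 45 to 116 higher and 30 to 97 lower. The causes were not tested. Without replicates 2 and 3, 1 ATF4 target and 1 p53 target stayed called higher, against 3 and 3. Without 1 library, 2 to 3 ATF4 and 2 to 4 p53 targets were called higher. Over all pathway lists without Gdf15, 9 genes were called higher, 5 with the Xist term, 3 without replicates 2 and 3 and 5 to 9 without 1 library. 0 were called lower, 2 with DESeq2, 1 without the filter on low values, 1 with the replicate block and 0 to 1 without 1 library.

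The samples were not treated as pairs, since not every same-numbered pair of libraries deviated together: the correlations ran from -0.13 to 0.68, and 3 of 6 WT libraries correlated best with their own number, a hint from the data and not the design. With the replicate block 112 genes were called higher and 76 lower, against 76 and 50 without it. The relation of Gdf15 with Mthfd2 in cmGch1 KO hearts reversed, with r = 0.51, without replicate 6, and r ran from -0.82 to 0.51 over the hearts left out. Of the 10 genes most like or unlike Gdf15, 6 stayed with Spearman's rho, 4 without replicates 2 and 3 and 2 to 7 without 1 library. Depth limits Fgf21 and Klb, which rest on 4 to 31 and 3 to 11 reads per group.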
